A study of Mus musculus with 29 samples.

Results

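The nuclear genes of oxidative phosphorylation were followed through 29 single-cell libraries of mouse brain and blood after stroke. Members were all genes whose symbol starts with Nduf, Uqcr or Atp5, or with Cox followed by a digit from 4 to 8, leaving out symbols with "-ps" (pseudogenes). The rule finds 90 of the 27827 genes in the deposited tables. They comprise 38 subunits of complex I, 8 assembly factors of complex I (the Ndufaf genes), 8 subunits of complex III, 19 genes of complex IV and 17 genes of the ATP synthase. All 90 are in the young and aged brain tables and 87 in the blood table, which lacks Cox4i2, Cox8b and Ndufa4l2.

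The mice were C57BL/6J with no transgene named in the labels. The middle cerebral artery was occluded for a limited time to model stroke, or the surgery was done as a sham. Single cells were profiled by Drop-seq, which counts transcripts per cell in droplets with barcoded beads. The young mice were males aged 8 to 10 weeks; brain was sampled as sham on day 2 (4 libraries), after stroke on day 2 (4) and after stroke on day 14 (4), and blood likewise (4, 4 and 3). For the mice aged 17 to 20 months only brain was sampled: sham on day 2 in 1 male and 1 female library, stroke on day 2 in 1 male and 2 female libraries, and stroke on day 14 in 1 female library. There was no sham at day 14, so both stroke times were set against the same day 2 sham libraries, and time since surgery cannot be told apart from stroke at day 14. Each brain library pools 4 to 5 hemispheres, sorted for CD45 intermediate and high cells and for CD45-negative, Ly6c-high endothelial cells, after papain digestion with actinomycin D, an inhibitor of transcription. Each blood library pools the leukocytes of 2 mice after red cell lysis. The 29 libraries carry distinct run codes in the deposited names, whose meaning is not stated. The labels do not say that replicates came from separate animals, so the p-values measure the spread between these libraries, which may be technical.

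Oxidative phosphorylation passes electrons from NADH and succinate through complexes I to IV to oxygen, and the ATP synthase uses the proton gradient this builds. A small core of subunits is encoded by the mitochondrial genome, and the members described here are the far more numerous subunits made from nuclear genes and imported. Microglia are the resident macrophages of the brain, and macrophages are known to shift between this pathway and glycolysis when activated.

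Promoters of these genes are textbook targets of NRF1, of ETS factors such as GABP, and of YY1, so the start regions of 4 members, 1 from each complex measured here, are shown. The 4 were named singly and not drawn by a rule. Each holds at least 1 match to the letters below, as 31 of the 70 members searched do, so they do not stand for their complexes. RefSeq windows of build GRCm38, from 250 bases before to 50 after the start, were matched by symbol for 70 of the 90 members. The 170 bases before the start are printed 5′ to 3′ on the gene's strand, with matches that end before the start in capitals. The letters are GCATGCGC (NRF1), CCGGAAG (ETS) and AAGATGGC (YY1), each searched on both strands. In Uqcr11 an NRF1 match begins 4 bases before the start and runs past it, so it is left in lower case. In Cox6a1 and Atp5k the NRF1 letters match on both strands, and these matches overlap; Cox6a1 also holds the ETS letters on the opposite strand. The windows lie at chr15:82354292-82354461 (Ndufa6), chr10:80406822-80406991 (Uqcr11), chr5:115348959-115349128 (Cox6a1) and chr5:108434400-108434569 (Atp5k), all on the minus strand.
Ndufa6: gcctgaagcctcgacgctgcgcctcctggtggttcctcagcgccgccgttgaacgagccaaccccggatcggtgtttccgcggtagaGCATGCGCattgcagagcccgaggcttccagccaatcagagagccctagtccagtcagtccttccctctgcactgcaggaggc
Uqcr11: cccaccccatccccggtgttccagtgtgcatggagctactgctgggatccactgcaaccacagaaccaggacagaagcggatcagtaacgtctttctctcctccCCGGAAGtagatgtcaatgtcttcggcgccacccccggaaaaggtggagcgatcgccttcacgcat
Cox6a1: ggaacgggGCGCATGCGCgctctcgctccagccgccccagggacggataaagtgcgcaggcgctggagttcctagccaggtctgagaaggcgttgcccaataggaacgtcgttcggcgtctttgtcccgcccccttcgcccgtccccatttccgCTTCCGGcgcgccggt
Atp5k: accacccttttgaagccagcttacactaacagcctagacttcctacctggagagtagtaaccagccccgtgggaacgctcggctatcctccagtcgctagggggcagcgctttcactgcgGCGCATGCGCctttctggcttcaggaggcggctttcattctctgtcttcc
Over the whole windows, the NRF1 letters were found in 11 of 70 members (15.7%) and in 3.05% of the 27025 symbols in the table. The ETS letters were in 16 members (22.9%, against 9.93% of all) and the YY1 letters in 10 (14.3%, against 3.19%). At least 1 of the 3 was in 31 members (44.3%) and in 14.9% of all symbols. A match is a description of letters and not evidence that a factor binds.

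Depth and libraries that stand apart are given first. Libraries held 1143 to 6328 cells and 819438 to 5855047 counts, their cells had 321 to 1363 counts at the median, and any pair of libraries shared at most 7 cell barcodes. The young brain libraries fall into 2 technical sets by their share of mitochondrial counts: 5 libraries had a median of 0.235% to 0.559% per cell, and 7 had 1.67% to 3.38%. The 2 mitochondrial ribosomal RNA genes mt-Rnr1 and mt-Rnr2 carry most of this split. They made up 0.000716% to 0.0535% of all counts in the 5 libraries and 1.46% to 3.26% in the other 7, while the remaining mitochondrial-genome genes made up 0.272% to 0.642% and 0.481% to 0.702%. Each young brain group has libraries of both sets (sham 1 and 3, stroke at day 2 2 and 2, stroke at day 14 2 and 2, in that order), so values are given within each set. The run codes of the 5 libraries all sort before those of the 7.

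One library needs a caution before any microglial result. In stroke at day 2, replicate 3, only 58 cells carry the authors' microglial code Mg, with 26321 counts. The 6 microglial markers summed there to 817 CPM (counts scaled to a common total for each library and cell type), against 11120 to 12975 in the other libraries of that group, and Sall1 and Olfml3 were at 0. The 6 monocyte markers summed to 4801 CPM there, against 883 to 1374. Sums over all microglia, member counts, class counts and the counts of other lists at day 2 are given with and without this library. Named members of young microglia at day 2 against sham are given both ways where their call depends on it. For day 14 against day 2, the counts but not the named members are given both ways. Sums of the authors' microglial sub-clusters are not given without it.

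Summed over the 90 members, the share of transcripts was low in resting microglia and in granulocytes and high in endothelial, mural and epithelial cells. The sums below are CPM of all counts of a library and authors' cell type with at least 20 cells. Choroid plexus epithelium (code Epi, 1 library) reached 49232 and mural cells (MC) 30625 to 40307 over 3 libraries. The median over young brain libraries was 21605 in endothelial cells (EC), 20294 in monocyte-derived cells (MdC), 18932 in NK cells, 17977 in cells coded DC, 17909 in T cells, 15047 in border-associated macrophages (BAM), 14825 in B cells, 14206 in microglia and 8467 in granulocytes (Gran). From EC down to B cells, each type's library range overlaps that of the next. In blood the medians ran from 22602 in cells coded pre through 20616 in NK cells, 19832 in monocytes (Mo), 19715 in DC, 16139 in T cells, 13962 in B cells and 13212 in eosinophils and basophils to 7469 in neutrophils (Neu). The neutrophil libraries, 5950 to 9359, lay below every library of the other blood types. The marker lists ranked highest where the code says for Mg, EC, MC, Epi, Gran, Neu and the B, T and NK cells. In BAM the monocyte list was higher than the border macrophage list (2747 against 1915 CPM per gene), and in brain DC higher than the dendritic list (1076 against 246), so these codes are used as the authors gave them. The same holds for blood DC, where the monocyte list led (3058 against 350), and for blood eosinophils and basophils, where the neutrophil list led (926).

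**Figure D1:**
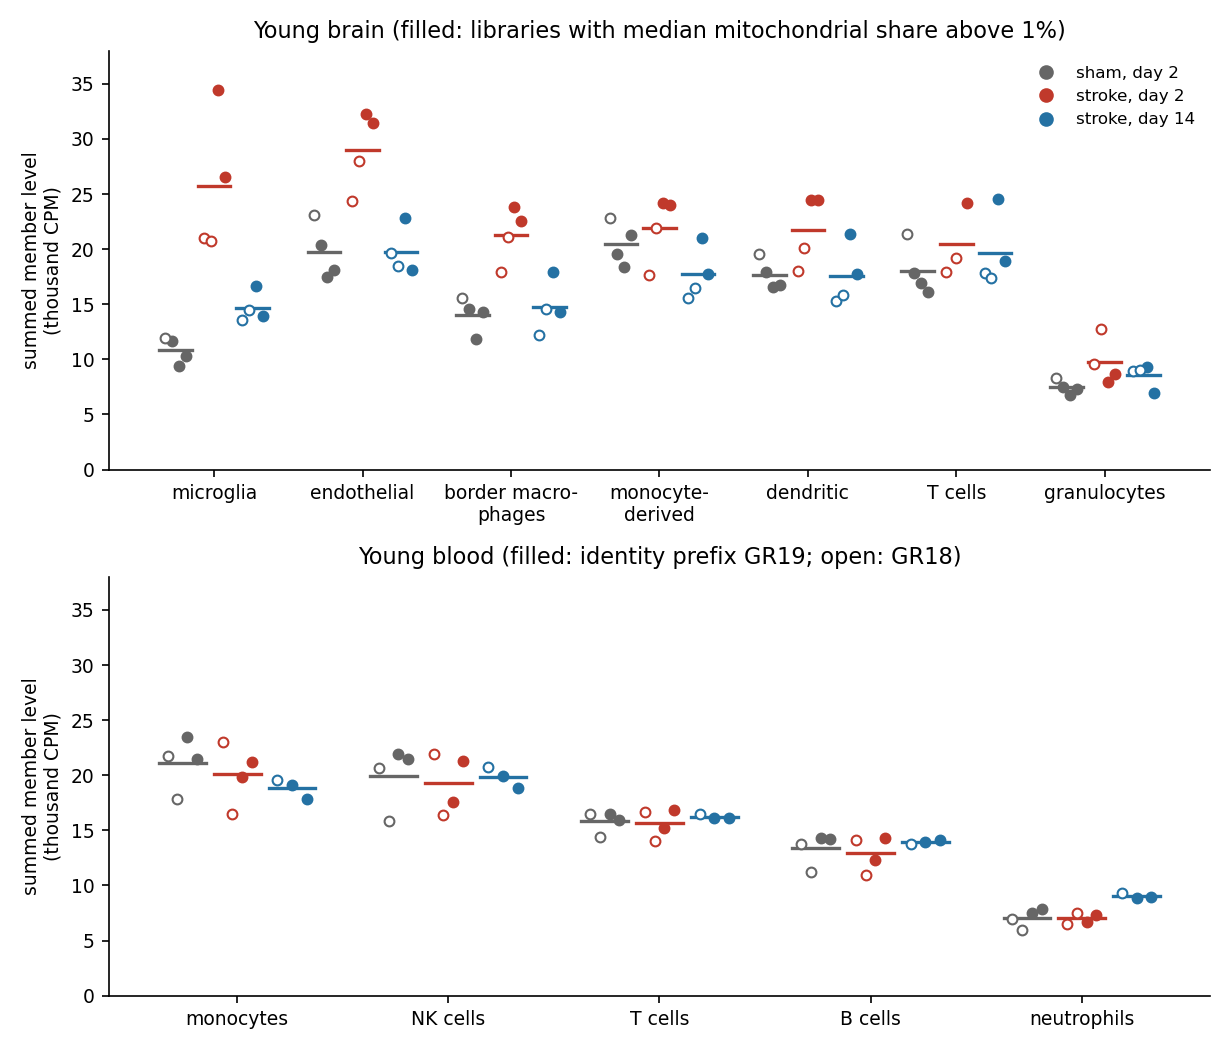
Summed expression of the member genes, in units of 1000 CPM, for each library (points) by cell type and group, with young brain above and blood below. Bars are group means, and filled points mark the 7 brain libraries with more mitochondrial counts or the blood libraries with the identity prefix GR19. Microglia lie at 9385 to 11933 CPM in sham and at 20777 or more in stroke at day 2, whereas the blood types shown overlap between groups except neutrophils at day 14.

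Microglia at day 2 after stroke held far more of these transcripts than microglia of sham brains. The sums were 11933, 11633, 9385 and 10337 CPM in the 4 sham libraries (mean 10822 ± 1182, SD, n = 4). They were 21017, 20777, 34469 and 26574 CPM in the 4 stroke libraries (25709 ± 6425, SD, n = 4), and no stroke library overlapped sham. The ratio of means was 2.38. Without replicate 3 the stroke mean was 22789 ± 3280 (SD, n = 3) and the ratio 2.11. Within the 5 libraries of low mitochondrial share, 1 sham library gave 11933 and 2 stroke libraries a mean of 20897. Within the other 7, the means were 10452 (n = 3) and 30522 (n = 2), and the only stroke library left there without replicate 3 stood at 26574.

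By edgeR's quasi-likelihood test on counts summed per library, 70 of the 85 members tested rose at day 2 and none fell, at an adjusted p under 0.05. The background is high: 31.4% of the 10145 genes tested were called in this comparison (15.7% higher), and their median log2 fold change was -0.05. The members' median was 1.24, with a range from -0.25 to 2.59. Without replicate 3 of stroke, 66 rose and none fell, with a median of 1.22, where 14.5% of all genes were called higher. The 5 members that were not tested were too low for the filter on low counts. Library scaling does not change the direction: the members' median was 1.10 without TMM factors, where the median of all genes was -0.23, and 1.00 with DESeq2, where it was -0.28.

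The 4 complexes had most of their members called higher, and the assembly factors a few. In complex I, which takes electrons from NADH, 34 of 38 subunits rose (median log2 fold change 1.23). In complex III, which hands electrons to cytochrome c, all 8 rose (1.28). In complex IV, which reduces oxygen, 12 of the 14 tested rose (1.74), and in the ATP synthase 14 of 17 (1.48). Of the 8 complex I assembly factors, which do not stay in the finished enzyme, 2 rose (25.0%; median 0.60), where 15.7% of all genes were called higher. Without stroke replicate 3, 32 complex I subunits, 7 of complex III, 12 of complex IV, 13 of the ATP synthase and 2 assembly factors rose.

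**Figure D2:**
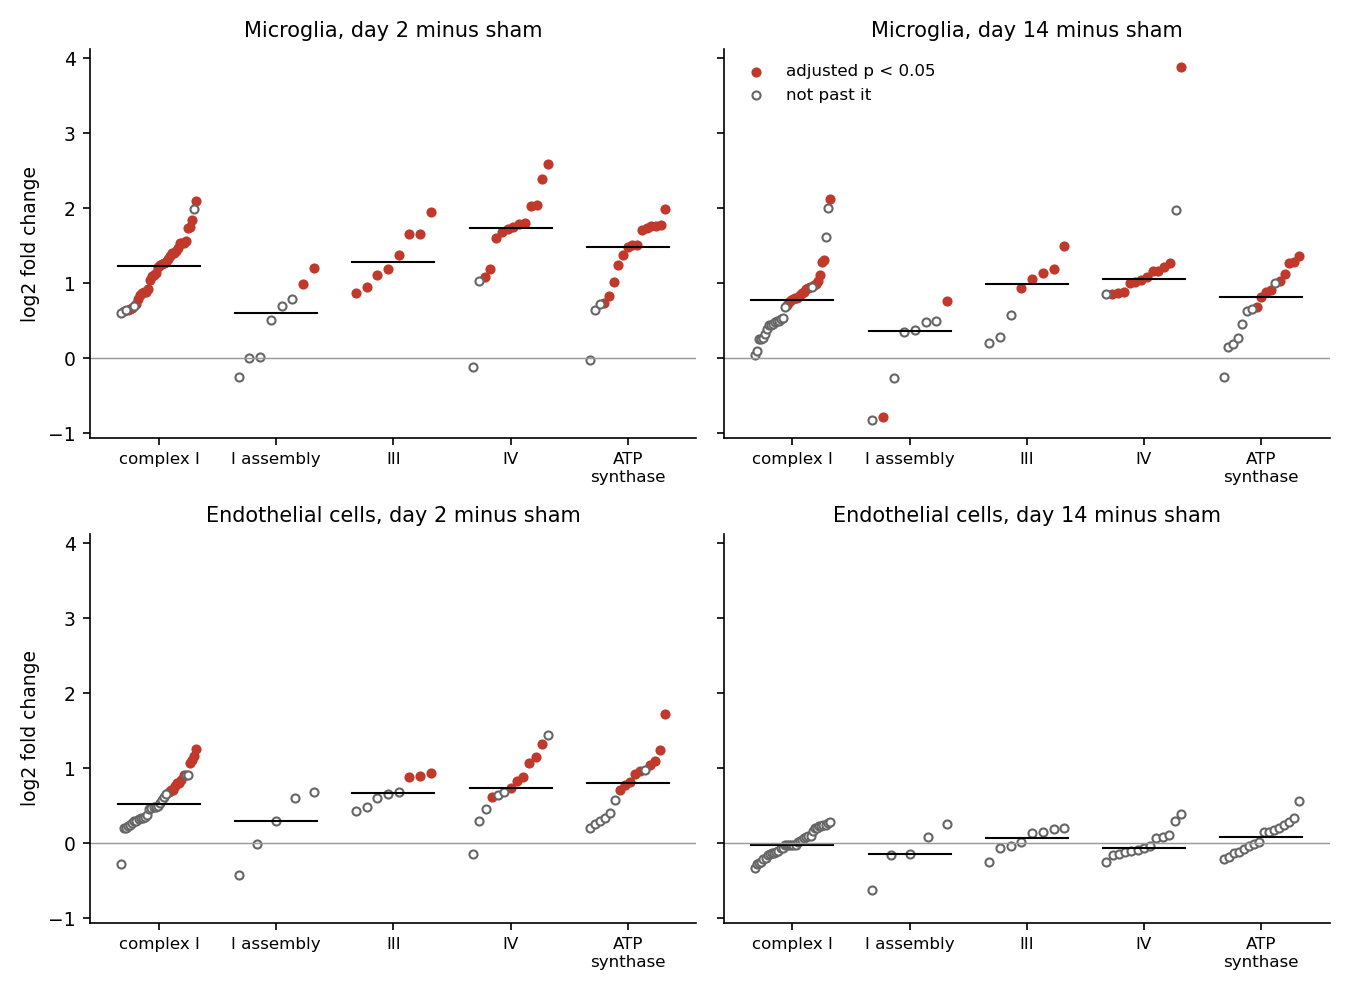
Log2 fold changes of the tested members by complex in microglia and endothelial cells at day 2 and day 14 against sham (points are genes, red where the edgeR adjusted p is under 0.05, black lines are medians). The microglial medians at day 2 run from 0.60 for assembly factors to 1.74 for complex IV, and the endothelial points at day 14 scatter around 0.

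In complex IV, Cox5a, which sits on the matrix side, had 314, 277, 610 and 505 CPM in the 4 stroke libraries and 98.3, 124, 88.2 and 85.6 in sham. The groups lie well apart, and the log2 fold change was 2.03 ± 0.28 (± gives the SE here and for other genes; edgeR adjusted p = 0.000275). Ndufa4, long counted with complex I and now placed in complex IV, had 519, 530, 464 and 809 CPM against 194, 145, 110 and 124 (2.04 ± 0.27; edgeR adjusted p = 0.000199). Every stroke library was above every sham library, as for Cox5b (1.80), Cox7a2 (1.78), Cox6a1 (1.75) and Cox8a (1.19), which also rose. Cox4i1, the main form of subunit 4, rose from 395, 617, 552 and 563 CPM to 955, 959, 1190 and 1409 (1.08 ± 0.24; edgeR adjusted p = 0.00528).

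Of the 14 complex IV genes tested, 2 were not called, Cox7c (1.03; edgeR adjusted p = 0.113) and Cox7a2l, the 1 with a value below 0. Cox7a2l encodes a factor that joins complexes III and IV into supercomplexes, and the C57BL/6J strain is known to carry a short form of it. Its values were 276, 231, 348 and 312 CPM in stroke and 233, 342, 342 and 314 in sham. The groups overlap (log2 fold change -0.11 ± 0.23; edgeR adjusted p = 0.737), and the value turned to 0.03 with the technical set as a term.

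In complex III, Uqcrq, a small membrane subunit, had 435, 511, 668 and 747 CPM in stroke against 168, 170, 133 and 131 in sham (1.96 ± 0.24; edgeR adjusted p = 0.000106). The Rieske iron-sulfur protein Uqcrfs1 rose by 1.38 and the core protein Uqcrc1 by 0.87 on the log2 scale. The call of Uqcrc1 was lost without stroke replicate 3 (0.76; edgeR adjusted p = 0.0656). In the ATP synthase, Atp5mpl, a small membrane proteolipid, rose by 1.99. Atp5g1, 1 of 3 genes for the same mature ring subunit c, had 240, 259, 232 and 437 CPM in stroke against 71.8, 126, 64.9 and 86.3 (1.78 ± 0.26; edgeR adjusted p = 0.000367). Its partner Atp5g2 was not called. Atp5j, a stalk subunit (1.77), Atp5e (1.76), Atp5k (1.51), Atp5a1 (0.83) and the catalytic Atp5b (1.48) also rose. Atp5l at 0.72 was not called (edgeR adjusted p = 0.178).

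In complex I, Ndufb6 rose by 1.85, Ndufb8 by 1.56 and the X-linked membrane subunit Ndufa1 by 1.42 on the log2 scale. The NADH-binding Ndufv1 rose by 0.89. The iron-sulfur subunit Ndufs1 at 0.60 was not called (edgeR adjusted p = 0.122), though it was without stroke replicate 3 (0.69; adjusted p = 0.0345). The assembly factor Ndufaf1 was at 0.02. Ndufs6b (2.09, edgeR adjusted p = 0.0456) and Cox6c2 (2.59, adjusted p = 0.0318) were called too, but both are near copies of Ndufs6 and Cox6c, so reads may be split between copies. Without stroke replicate 3 Ndufs6b was not called (edgeR adjusted p = 0.0527). Cox6c2 also rests on 1 library, with 154 CPM in stroke replicate 2 and 16.6 to 29.0 in the other 3.

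Cell identity and depth moved with the group, and their part in the result was not tested. In the microglial sums, the 6 microglial markers summed to 14637 to 21561 CPM in sham, 817 to 12975 at day 2 and 10302 to 14118 at day 14. The 6 monocyte markers ran from 313 to 465 CPM in sham, 883 to 4801 at day 2 and 2212 to 3201 at day 14. In replicate 4 of each group, Ccr2, Ly6c2, Plac8 and Chil3 of the monocyte list were at 0. The other 2 genes of that list were not: Lyz2 was at 233, 520 and 2125 CPM and Ms4a6c at 80.0, 363 and 86.9 in sham, day 2 and day 14. The summed members in those libraries stood at 10337, 26574 and 13921 CPM. Border macrophage markers summed to 30.6 to 38.7, 14.1 to 164 and 65.0 to 76.4 CPM. The median counts per microglial cell ran from 330 to 648 in sham, 338 to 1489 at day 2 and 433 to 2042 at day 14. Among cells with at least 500 counts, 71 of 83 members rose at day 2 and none fell, with a median of 1.32. This count includes replicate 3, and the share of all genes called among such cells is not given here.

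The 8 tested genes of the mitochondrial genome did not follow the nuclear genes. At day 2 in microglia their median log2 fold change was -0.59, 1 of 8 lay above 0, and mt-Nd3 fell by 1.70 on the log2 scale (edgeR adjusted p = 0.00821). mt-Cytb was at -0.30 and mt-Co1 at -0.56, neither called. Without stroke replicate 3 the median was -0.51 and mt-Nd3 was again called lower. These changes are not given within the technical sets, which are defined by mitochondrial share. In microglia, mitochondrial-genome genes other than the ribosomal RNAs made up 0.293% to 0.594% of counts in the 5 libraries and 0.248% to 0.661% in the 7. At day 14 none of the 8 was called (1 at an unadjusted p under 0.05), with a median of -0.03.

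At day 14 part of the increase was still there. The microglial sums were 13538, 14491, 16655 and 13921 CPM (14651 ± 1392, SD, n = 4), all above sham and all below day 2, 1.35 times the sham mean. The technical sets gave the same order, with day 14 means of 14015 and 15288. Against sham, 46 of 85 members rose and 1 fell (edgeR), where 15.2% of all genes were called, 10.6% higher and 4.68% lower. The members' median was 0.85, and 0.38 without TMM factors, where the median of all genes was -0.50. That scaling left 17 members higher and 2 lower, and the share of all genes called with it is not given here. Without sham replicate 3 the members called were 27 and without sham replicate 4 they were 28, again with the share of all genes not given here. By class, 19 of 38 complex I subunits, 5 of 8 of complex III, 12 of 14 of complex IV and 9 of 17 of the ATP synthase rose, and 1 assembly factor rose.

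Of the panel genes at this time, Ndufv1 was at 0.10, Ndufs1 at 0.26, Uqcrc1 at 0.20 and Atp5a1 at 0.26, none called. The called members with the largest changes included Uqcrh (1.50), Atp5mpl (1.36), Ndufb2 (1.31), Ndufa2 (1.28), Atp5e (1.28) and Cox6b1 (1.27). The gene that fell was Ndufaf7, a methyltransferase. It had 27.5, 32.7, 32.4 and 30.2 CPM at day 14 and 57.7, 56.6, 43.6 and 53.6 in sham, with no overlap (-0.79 ± 0.20; edgeR adjusted p = 0.0179).

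Between day 2 and day 14 few members passed the test. Directly compared, 8 of 85 members were lower at day 14 and 2 were higher (edgeR; 6.92% of all genes were called, 3.46% lower and 3.46% higher), with a median of -0.47 and 78 of 85 below 0. Without stroke replicate 3 of day 2, 7 were lower and 2 higher, with a median of -0.44. With all libraries in, the 8 lower ones were Atp5g1, Cox5a, Ndufa4, Atp5f1, Ndufa12, Ndufc1, Cox7b and Atp5g3. Which of them kept the call without that library is not given here. Of the 10 members called, 0 kept the call in every fit with 1 library left out. The number depends on scaling: without TMM factors it was 42 lower and 1 higher, with DESeq2 11 and 3. The share of all genes called under these 2 settings is not given here. The TMM factors ran from 0.921 to 1.34 at day 2 and from 0.792 to 0.858 at day 14. The number of members called also rests on single libraries: without replicate 4 of day 2 it was 0 lower and 1 higher. Without replicate 1, 2 or 4 of day 14 the members called were 3, 4 and 3. For the fits with 1 library left out, the share of all genes called is not given here either.

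Atp5g1 fell from 240, 259, 232 and 437 CPM at day 2 to 146, 134, 131 and 129 at day 14 (-1.16 ± 0.26; edgeR adjusted p = 0.0160). Cox5a fell to 166, 169, 259 and 140 CPM (-1.15 ± 0.28; adjusted p = 0.0249) and Ndufa4 to 272, 291, 397 and 208 (-1.02 ± 0.27; adjusted p = 0.0350). In each of these the groups are apart. Cox4i1 had 1021, 1029, 1377 and 1332 CPM at day 14, overlapping day 2 (0.08, not called).

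The 2 members that were higher at day 14 than at day 2 were Cox6a2 and Cox7a2l. Cox6a2, the heart and skeletal muscle form of subunit 6a, had 7.02, 10.1, 5.81 and 11.1 CPM in sham. It rose to 24.3, 37.2, 58.1 and 68.9 at day 2 (2.38 ± 0.36; edgeR adjusted p = 0.000482) and stood at 135, 131, 159 and 87.6 at day 14 (3.88 ± 0.35 against sham; adjusted p = 8.61e-06). The day 2 value of replicate 3, 58.1, rests on few counts, since its microglia held 26321 counts over all genes. Without that library the rise at day 2 was 2.35 ± 0.38 (edgeR adjusted p = 0.00123). The 3 groups do not overlap, and day 14 was above day 2 by 1.50 ± 0.34 (edgeR adjusted p = 0.0166). Within the 7 libraries of higher mitochondrial share that last difference was 0.80 and not called (adjusted p = 0.230).

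Cox7a2l rose at the later time, with 452, 491, 735 and 543 CPM at day 14. All 4 lay above sham (0.85 ± 0.22; edgeR adjusted p = 0.0205) and above day 2 (0.96 ± 0.23; adjusted p = 0.0231). Without TMM factors the first value was 0.39 (adjusted p = 0.161) and the second 0.62 (adjusted p = 0.105), and neither was called within the 7 libraries alone. Ndufa1 had 409, 437, 512 and 398 CPM at day 14, 2.12 ± 0.22 above sham (edgeR adjusted p = 2.53e-05). All 4 values lie above those of day 2, by 0.70, which was not called (adjusted p = 0.0710).

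**Figure D3:**
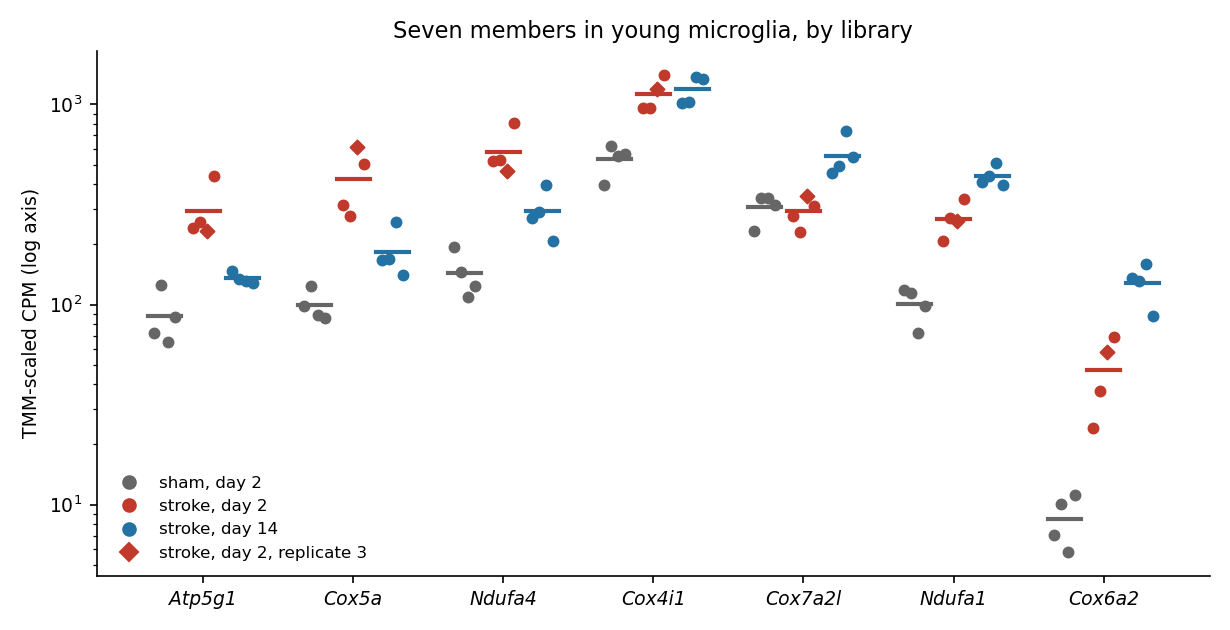
CPM of 7 members in each young microglial library (log axis) by group; the diamond is stroke at day 2, replicate 3. Atp5g1, Cox5a and Ndufa4 peak at day 2, Cox4i1 is level from day 2 to day 14, and Cox6a2 and Cox7a2l are highest at day 14.

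The authors' microglial sub-clusters differ in these sums, and their sizes differ between groups; the values are a description, since which genes the authors clustered on is not given in the sources used here. Sub-cluster values here and below use libraries with at least 20 of its cells. In Mg1 the mean was 11531 CPM in sham (5826 cells), 15249 at day 2 (335) and 12409 at day 14 (313). In Mg2 it was 9664, 12182 and 9862. Mg3 held 3415 cells at day 14, with 13353, 18590 and 15086 CPM in the 3 groups. Mg4 held 1034 cells at day 2 (26378 CPM) and 124 in sham (15897), and Mg5 910 cells (24317) and 108 (14697). In each of these 5 sub-clusters the mean was highest at day 2, though some means rest on few libraries. In Mg2 the sham (8345 to 10897, n = 4) and day 2 libraries (10455 to 13908, n = 2) overlapped, and day 14 was 1 library. In Mg4 the 1 day 14 library (22870) lay inside the day 2 range (21663 to 34794, n = 4). That range and the Mg4 mean include stroke replicate 3, and values without it are not given here. Mg5 stood at 19850 at day 14 (n = 2).

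Brain endothelial cells held more of these transcripts at day 2 than in sham, and at day 14 their sums were back in the sham range. The sums were 23053, 20409, 17500 and 18070 CPM in sham (19758 ± 2531, SD, n = 4). They were 24360, 27995, 32269 and 31426 at day 2 (29013 ± 3611, SD, n = 4) and 19684, 18466, 22800 and 18146 at day 14 (19774 ± 2123, SD, n = 4). Day 2 does not overlap either group, and day 14 overlaps sham throughout. Within the technical sets the means were 23053, 26178 and 19075 in the 5 libraries and 18660, 31848 and 20473 in the 7, in the order sham, day 2, day 14.

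By edgeR, 31 of 78 members rose at day 2 and none fell, where 13.4% of the 5833 genes tested were called and 6.89% were higher. The median was 0.65, against 0.00 over all genes. By class, 12 of 36 subunits of complex I, none of 5 assembly factors, 3 of 8 of complex III, 7 of 13 of complex IV and 9 of 16 of the ATP synthase rose. Single libraries matter here: 19, 13 or 15 members rose without sham replicate 2, 3 or 4, and 19 or 20 without stroke replicate 3 or 4. For these fits the share of all genes called is not given here. At day 14 none was called (edgeR and DESeq2), 1 had an unadjusted p under 0.05, the median was -0.02, and no gene of the whole table was called (0.0%).

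Atp5g1 had the largest log2 fold change of the 78 members. It had 279, 374, 201 and 356 CPM at day 2 and 102, 77.5, 50.3 and 138 in sham (1.73 ± 0.26; edgeR adjusted p = 0.00132), and 100, 92.0, 108 and 104 at day 14. The day 14 values lie inside the sham range, and the fall from day 2 was -1.58 ± 0.25 (edgeR adjusted p = 0.00208). Cox5a rose by 1.32 (adjusted p = 0.00850), Ndufb6 by 1.26, Atp5e by 1.24, Ndufs8 by 1.16, Ndufa4 by 1.15 (adjusted p = 0.00983) and Cox7b by 1.07. Ndufab1, the acyl carrier protein, rose by 1.10, the ATP synthase subunit Atp5d by 1.09 and Ndufa8 by 1.06. Cox4i1 at 0.30 and Cox7a2l at -0.15 were not called, and Cox7a2l was at 0.16 within the 7 libraries.

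From day 2 to day 14, 27 of 78 endothelial members fell and none rose (edgeR; 11.2% of all genes called, 6.09% lower), with a median of -0.61. Among them, Cox7b fell by 1.20, Ndufb2 by 1.18, Atp5mpl by 1.17, Uqcrq by 1.14 and Ndufa11 by 1.06 on the log2 scale. Within the 7 libraries alone 4 fell, and without TMM factors 16. The call count was 17 or 12 without day 2 replicate 3 or 4 and 13, 13 or 9 without day 14 replicate 1, 2 or 4. The share of all genes called under these settings is not given here, so these counts cannot be set against it.

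Other markers moved in these endothelial sums as well, and their part was not tested. The 6 endothelial markers summed to 17742 to 28122 CPM in sham, 13981 to 19389 at day 2 and 19365 to 23974 at day 14. Mural markers summed to 97.6 to 558, 56.4 to 209 and 76.4 to 823 CPM, with Pdgfrb at 0, and red cell markers to 36.6 to 3545, 0 to 6069 and 0 to 9732. Median counts per endothelial cell were 286 to 606, 476 to 1008 and 304 to 732. Among cells with at least 500 counts, 21 of 77 members rose at day 2, and the share of all genes called there is not given here. In the authors' sub-clusters, EC1 had 19993, 26669 and 20155 CPM in sham, day 2 and day 14, EC3 18013, 22320 and 19036, and EC4 19785, 24018 and 19175. The sham and day 2 libraries overlapped in EC3 (15958 to 20263 and 18897 to 25453) and in EC4 (17908 to 21838 and 20120 to 26800). In EC5 the sham libraries (24142 to 25542) and the day 2 libraries (22708 to 27687) overlapped, with 19869 at day 14. EC2 held 1017 cells at day 2 (32323 CPM) and 30 in sham. Its 1 sham library stood at 29900, inside the day 2 range (26071 to 37455). EC6 had 21259 in 1 sham library and 32523 at day 2, and EC7 18093 and 28725 in 1 library each.

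In border-associated macrophages the sums were 11828 to 15527 CPM in sham (14044 ± 1573, SD, n = 4) and 17888 to 23792 at day 2 (21327 ± 2546, SD, n = 4), without overlap, and 14737 ± 2352 (SD, n = 4) at day 14. No single member passed edgeR's test at day 2, although 50 of the 51 tested lay above 0 with a median of 0.67. Of these, 22 had an unadjusted p under 0.05, the smallest adjusted p was 0.0620, DESeq2 called none, and 2.51% of the 1313 genes tested were called. The cell type had 31 to 282 cells per library in these groups. The authors' sub-clusters differed between the groups: BAM1 held 259 cells in sham and 78 at day 2, and BAM4, at 29296 CPM, 75 cells at day 2, while no sham library held 20 of its cells. In BAM2 sham (12507 to 16362, n = 4) and day 2 (15041 to 16663, n = 2) overlapped. BAM1 had 11353 to 14703 in sham and 18337 in 1 day 2 library, and BAM3 11369 to 18884 and 29325. Atp5g1 was at 1.18 here, with 297, 117, 172 and 277 CPM against 89.3, 114, 98.4 and 108.

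Recruited and lymphoid cells in the brain showed overlapping groups. Monocyte-derived cells, derived from blood monocytes, had 20482 ± 1941 CPM in sham, 21938 ± 3051 at day 2 and 17702 ± 2384 at day 14 (SD, n = 4 each). The technical sets disagree on day 2 against sham: 19788 (n = 2) against 22788 (n = 1) in the 5 libraries and 24088 (n = 2) against 19714 (n = 3) in the 7. From day 2 to day 14, none of 82 members was called by edgeR or DESeq2 (1.79% of all genes by edgeR; 8 members at an unadjusted p under 0.05), with a median of -0.34. Cells coded DC had 17684, 21769 and 17581 CPM and T cells 18057, 20436 and 19689 in sham, day 2 and day 14. For these as well the technical sets disagree on day 2 against sham. In the 5 libraries DC were at 19052 (n = 2) against 19556 (n = 1) and T cells at 18555 (n = 2) against 21370 (n = 1); in the 7, DC were at 24486 (n = 2) against 17060 (n = 3) and T cells at 24198 (n = 1) against 16953 (n = 3). From day 2 to day 14 the means of these 3 types fell in both sets. Monocyte-derived cells went from 19788 to 16029 in the 5 libraries and from 24088 to 19376 in the 7 (n = 2 each). DC went from 19052 to 15600.5 and from 24486 to 19562 (n = 2 each). T cells went from 18555 to 17624 (n = 2 each) and from 24198 (n = 1) to 21755 (n = 2). Granulocytes had 7463, 9719 and 8540 CPM in sham, day 2 and day 14.

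Aged microglia moved the same way at day 2, with fewer calls. The sums were 12429 and 11891 CPM in sham and 17201, 19740 and 20987 in stroke, a ratio of means of 1.59 with no overlap. In edgeR's fit of the 4 day 2 brain groups, 6 of 85 members rose and none fell, where 2.67% of all genes were called (1.98% higher), and the median was 0.71 with 44 members at an unadjusted p under 0.05. They were Cox6a2 (1.87), Atp5g1 (1.40), Cox7b (1.36), Uqcrq (1.30), Cox5b (1.21) and Ndufc1 (1.07). Atp5g1 had 248, 267 and 256 CPM in stroke and 87.7 and 105 in sham. Cox6a2 had 70.0, 149 and 79.0 against 29.2 and 26.7. The calls lie near the threshold: none remained with counts rounded up per cell or with only the aged groups in the fit. Leaving out 1 library gave 0 to 4, and the share of all genes called in those fits is not given here. Markers moved here too, and their part was not tested. The 6 microglial markers summed to 19930 and 18563 CPM in sham and 10186, 8635 and 15911 in stroke. The 6 monocyte markers summed to 1294 and 1300 against 1606, 1305 and 1214. Ccr2 and Ly6c2 were at 0 in 2 of the 3 stroke libraries, but the list did not move together. Ms4a6c was at 522, 533 and 224 CPM in stroke against 88.2 and 60.7 in sham. Chil3 was at 36.7, 0 and 74.5 against 0 and 4.25, and Plac8 at 5.39, 0 and 81.8 against 0 and 12.6. Lyz2 was at 1035, 772 and 834 against 1185 and 1201.

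The difference between the stroke effects of aged and young microglia was itself tested. None of the 85 members was called by edgeR or DESeq2 (none of 11096 genes, 0.0%), and 10 had an unadjusted p under 0.05. The median interaction was -0.51, with the aged effect the smaller. Without the young stroke replicate 3, the count was again 0. Age cannot be told apart from the aged libraries' own processing, and sex differs as well. Aged endothelial sums were 18939 and 20842 CPM in sham and 21773 to 24413 at day 2.

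In blood the summed members overlapped between all groups in monocytes, NK, T and B cells. Monocytes had 21123 ± 2386 CPM in sham, 20131 ± 2736 at day 2 (SD, n = 4 each) and 18845 ± 868 (SD, n = 3) at day 14. NK cells had 19963, 19306 and 19829, T cells 15814, 15701 and 16232, and B cells 13372, 12941 and 13947. Neutrophils had 7062 ± 829 and 7028 ± 494 (SD, n = 4 each), then 9043 ± 277 (SD, n = 3) at day 14, when all 3 libraries (8842 to 9359) lay above the others.

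No member was called by edgeR or DESeq2 in any blood comparison. At day 2, none of 63 in neutrophils (0.0% of all genes; none at an unadjusted p under 0.05), 78 in monocytes (0.0%; 1), 82 in B cells (0.0%; none) and 74 in T cells (0.0%; 1) passed. At day 14 none passed in neutrophils (6.05%; 8 at an unadjusted p under 0.05; smallest adjusted p = 0.0640), monocytes (0.254%; none), B cells (0.0114%; none) and T cells (0.0%; none). Neutrophils at day 14 against day 2 gave none as well (4.71%; 8). The higher neutrophil sums at day 14 came with a shift over all genes of that cell type. Without TMM factors, 6 members were higher than sham, and the share of all genes called with that scaling is not given here. The median of all genes was then 0.35 beside 0.40 for the members. With TMM factors the members' median was 0.06. The sub-clusters differed as well: Neu1, Neu2 and Neu3 held 1659, 2283 and 273 cells in sham and 77, 140 and 2111 at day 14, with sham means of 7271, 6915 and 7847 CPM and day 14 means of 9023, 7835 and 9297. In Neu2 the day 14 libraries (7036 to 8635) overlapped sham (5733 to 7495), and in Neu6 (8401 to 9068) too (7565 to 8465).

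Brain cells were set against their blood counterparts at day 2 of stroke, to ask which members differ between infiltrated and circulating cells. The 2 tissues were prepared in different ways, so tissue and processing cannot be told apart. In monocyte-derived cells against blood monocytes, 10 of 80 members were higher and 1 lower by edgeR (24.7% of all genes called, 13.4% higher and 11.4% lower), with a median of 0.46. In neither direction was the share of members called above that of all genes, so these counts do not set the members apart. The higher ones included Ndufaf2 (1.52), Ndufa12 (1.20), Ndufaf8 (1.12), Atp5b (0.99), Cox5a (0.90), Ndufa2 (0.88) and Atp5g1 (0.87). Ndufaf7 was lower, with 26.3, 17.4, 21.8 and 16.3 CPM in brain and 58.1, 45.2, 65.8 and 62.4 in blood (-1.51 ± 0.27; edgeR adjusted p = 0.00149). Cox7a2l had 337, 198, 563 and 465 CPM in brain and 705, 670, 719 and 674 in blood, apart but not called (-0.82; adjusted p = 0.0611). With 1 library left out, 2 to 21 members were called, and the share of all genes called in those fits is not given here.

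Brain granulocytes against blood neutrophils gave 3 higher members of 38 (9.16% of all genes called, 6.58% higher): Atp5mpl (1.39), Ndufa2 (1.18) and Uqcrq (1.05). That share of members lies close to the share of all genes called higher. None remained with the technical set as a term or among cells of at least 500 counts. Cox7a2l was at -1.22 and not called (edgeR adjusted p = 0.0566), with 46.4, 41.8, 231 and 96.6 CPM against 278, 292, 287 and 265. The brain values rest on few counts, 22 over the 4 libraries for Cox7a2l and 40, 46 and 44 for Atp5mpl, Ndufa2 and Uqcrq.

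A few members are forms restricted to certain tissues, and their levels differed between cell types here. Levels are CPM pooled over the young libraries, compared within a gene. Ndufa4l2, a HIF-1 target of the Ndufa4 family, was at 565 CPM in mural cells (641 to 944 in the 3 libraries with 20 cells or more), 3.42 in endothelial cells and below the floor of 3 counts, 0.184 CPM, in microglia. Cox4i2, the oxygen-responsive form of subunit 4, was at 400 CPM in mural cells on 33.1 counts (76.9 to 1148 over those libraries), 1.91 in endothelial cells and 0.330 in microglia. In epithelial cells Cox8b was at 273 CPM and Cox6b2, known from testis, at 190, on 16.5 and 11.5 counts. The 1 epithelial library with at least 20 cells had 474 and 312 CPM. Cox6b2 was also at 42.5 CPM in mural cells (3.51 counts), 41.0 in blood cells coded pre and 23.4 in blood DC. It was at 17.9 in blood monocytes, 17.3 in brain DC and 10.8 in monocyte-derived cells. Cox7a1, a muscle form, was highest among types above their floor in monocyte-derived cells (5.61 CPM); the floors in epithelial (49.7) and mural cells (36.3), where it had fewer than 3 counts, allow higher levels.

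Cox6a2 had another distribution, and its pooled levels depend on the mix of groups. Pooled by group, microglia were at 9.68 CPM in sham, 51.0 at day 2 and 106 at day 14, and brain DC at 18.4, 22.2 and 47.4. Blood DC ran the other way, at 404, 281 and 81.1 CPM on 36.8, 20.3 and 25.4 counts. Over all young libraries it was at 57.9 CPM in microglia, 36.2 in brain cells coded DC, 173 in blood DC (0 to 617 by library) and 40.0 in brain B cells, where it rests on 7.86 counts. In brain monocyte-derived cells it was at 3.05 and in border macrophages at 2.31, under its floor. It was at 0 in brain granulocytes and in 17186 blood neutrophils, which allows up to 0.263 CPM in the latter. Floors cover counting error only.

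**Figure D4:**
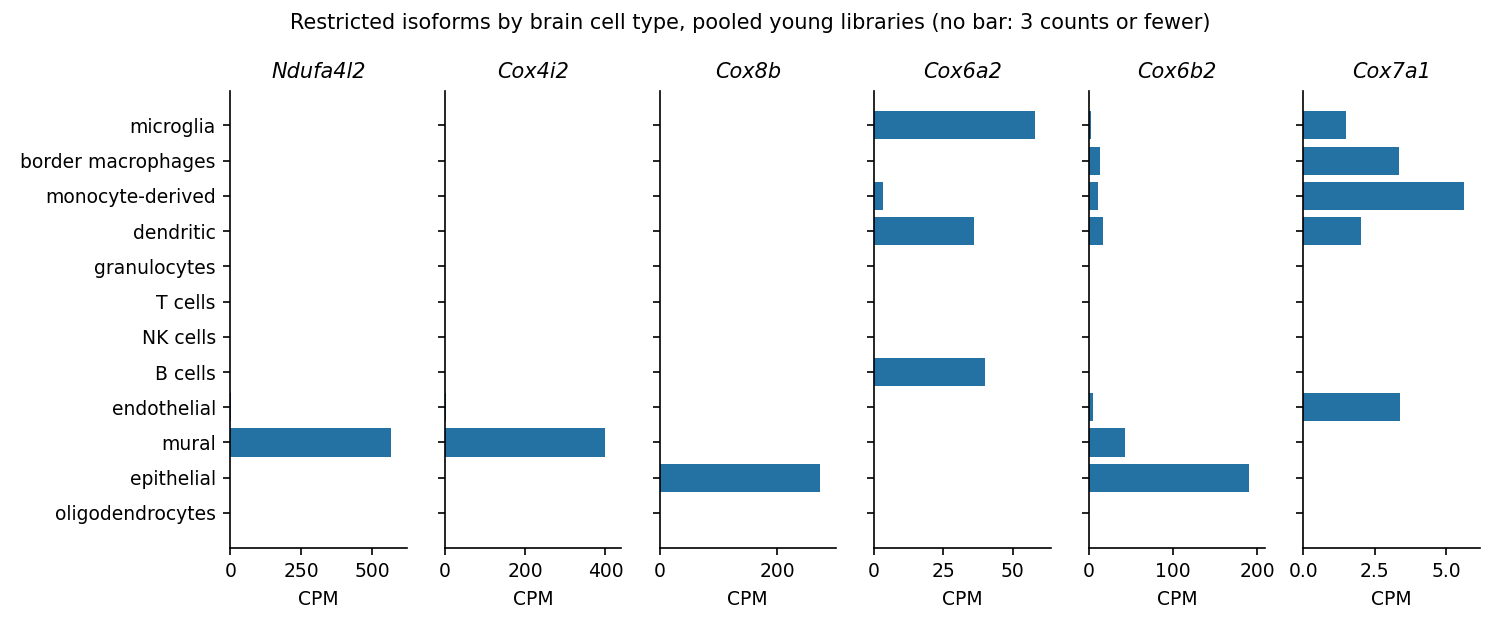
Pooled CPM of 6 tissue-restricted members by young brain cell type (bars; no bar where 3 counts or fewer were found). Ndufa4l2 and Cox4i2 are highest in mural cells, Cox8b and Cox6b2 in epithelial cells, and Cox6a2 in microglia, B cells and cells coded DC, where its bars pool groups that differ (9.68 to 106 CPM in microglia).

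The rest of the pathway, from lists outside the rule, is given for microglia at day 2 by the same edgeR fit. In complex II, which feeds electrons from succinate, Sdhb (0.99), Sdhc (1.16) and Sdhd (0.79) rose and Sdha (0.46) was not called. Of 7 electron carriers and other subunits 6 rose, with Cycs, cytochrome c, at 1.43 and Cyc1 at 1.20. Of 13 genes of the tricarboxylic acid cycle 4 rose (30.8%; median 0.27) and of 31 other assembly factors 6 rose (19.4%; 0.17), shares to be read against the 15.7% of all genes called higher. Of 77 mitochondrial ribosomal proteins 41 rose (0.83), and of 91 cytosolic ribosomal proteins 33 rose and 2 fell (0.91). Of 10 regulators of mitochondrial biogenesis none was called (3 at an unadjusted p under 0.05), with a median of -0.27: Nrf1 was at 0.17, Gabpa at -0.33 and Tfam at -0.22. Of 7 HIF-1 targets 3 rose, the glycolytic Ldha (2.36) and Pgk1 (2.51) and the lipid droplet gene Hilpda (1.59). Without stroke replicate 3 the genes that rose were 3 of complex II, 5 carriers, 4 of the cycle, 6 other assembly factors, 40 mitochondrial and 35 cytosolic ribosomal proteins and 3 HIF-1 targets, with no biogenesis regulator, where 14.5% of all genes were called higher; 1 cytosolic ribosomal protein fell.

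At day 14 none of the 4 complex II genes and none of the 7 carriers was called in microglia (1 and 2 at an unadjusted p under 0.05), 7 of 77 mitochondrial ribosomal proteins (9.09%) rose, below the 10.6% of all genes called higher, and 40 of 91 cytosolic ribosomal proteins rose and 1 fell. In endothelial cells at day 2, 1 of 4 complex II genes, 2 of 13 of the cycle, 13 of 71 mitochondrial and 25 of 84 cytosolic ribosomal proteins and Ldha among 5 HIF-1 targets rose, where 6.89% of all genes were called higher. None of 4 biogenesis regulators was called there.

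Over all 174 young library-by-type sums from 23 libraries, the genes outside the rule whose level ran most like the summed members were, of 6616 compared, Hint1 (Spearman rho 0.797), Psmb4 (0.793), Smdt1 (0.788), Dbi (0.784) and Pomp (0.757). Psmb4 is a proteasome subunit, Pomp a proteasome assembly chaperone and Smdt1 a subunit of the mitochondrial calcium uniporter. The points share libraries and depth, so this is a description without a test.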

How the data were processed

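The deposited tables hold expected counts per gene and cell that are not whole numbers; the step that made them so, and the aligner, are not given in the sources used here. Seurat and mm10 are named per the submitters' processing notes. The authors' metadata gave cell types and a percent of mitochondrial counts per cell, which defined the 2 technical sets of young brain. In blood the sets are prefixes of an identity field in that metadata (GR18, GR19), whose meaning is not stated. All deposited cells were kept and no doublet caller was run. Expected counts were summed per library and authors' type (at least 20 cells), rounded, and fitted with edgeR 4.0.16 (R 4.3.3; TMM, filterByExpr, two-sided quasi-likelihood test, Benjamini-Hochberg over all genes tested, called under 0.05). CPM printed per library for single genes use TMM-scaled library sizes; summed members and markers use plain totals. Fits held the 3 young brain or 3 blood groups, the 4 day 2 brain groups for age, or the 2 day 2 stroke groups across tissues. Each fit except that of the 4 day 2 brain groups was tried on simulated data with 200 changed genes, for its first comparison only. The simulation used the same spread for all genes and no technical sets, and its results are not given here.

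The members and lists were chosen with earlier results of these data known. Named genes were up to 12 called members per direction with the largest change, plus a fixed panel of 26. Values of 1 panel gene are not reported here. Other lists held complex II (4 genes), the mitochondrial genome (12 found), electron carriers (7), assembly factors (32), biogenesis regulators (12), the tricarboxylic acid cycle (13), ribosomal proteins (78 mitochondrial, 97 cytosolic) and HIF-1 targets (8). Alternatives were DESeq2 1.42.0, no filter, no TMM, each library left out, technical set as a term, replicate block, only the compared groups, counts rounded up, and cells of at least 500 counts. Fitting only the 7 libraries with more mitochondrial counts was chosen after seeing the data.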

Additional observations from a re-analysis of the deposited data

Results flagged for a closer look

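Of 31 groups of 4 or more libraries in which the summed members were examined for a single library far from the rest, 2 had one; chance gives about 1 in 20 groups. In blood B cells of sham mice, replicate 2 stood at 11210 CPM, well below the other 3 libraries. In brain granulocytes at day 14 of stroke, replicate 4 stood at 6907 CPM, below the other 3. The aged day 14 stroke group is 1 library and entered no test. Its microglia held 15610 CPM of the members, between the aged sham libraries (11891 and 12429) and the aged day 2 libraries (17201 to 20987).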

How the results depend on the processing

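Counts are members called under the alternative, with the reported count in brackets where first given. The share of all genes called under these alternatives is not given, so the counts cannot be set against it. Without the filter on low counts, microglia at day 14 gave 30 (47), day 14 against day 2 gave 3 (10), endothelial cells at day 2 gave 20 (31) and day 14 against day 2 gave 13 (27). Without that filter, neutrophils at day 14 gave 1 (0) and aged microglia 1 (6), and granulocytes against neutrophils turned to 1 lower (3 higher). Without TMM factors, microglia at day 14 gave 19, microglia at day 14 against day 2 gave 43, endothelial day 14 against day 2 gave 16, neutrophils at day 14 gave 6, neutrophils at day 14 against day 2 gave 3 (0), and monocyte-derived cells against monocytes gave 7 (11). DESeq2 gave 11 in aged microglia and 8 in granulocytes against neutrophils. Among cells of at least 500 counts, microglia at day 14 against day 2 gave 20, endothelial cells at day 2 gave 21, monocyte-derived cells against monocytes 7, and granulocytes against neutrophils 0. Aged microglia gave 9 there. With the technical set as a term, microglia at day 14 against day 2 gave 15, monocyte-derived cells against monocytes 4 and granulocytes against neutrophils 0. Within the 7 libraries alone, microglia at day 14 against day 2 gave 2 and endothelial cells day 14 against day 2 gave 4. With only the compared groups, microglia at day 14 against day 2 gave 5, endothelial day 14 against day 2 gave 19 and aged microglia 0. With counts rounded up, aged microglia gave 0 and granulocytes against neutrophils 7.

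The labels do not say what a replicate number shares. In blood, sham and day 2 stroke replicates 1 and 2 share the start of a run code, and those pairs correlated at 0.0958 to 0.352 over 4 cell types; replicates 3 and 4 share none. In none of the 8 fits checked did every same-numbered pair correlate above 0.1: 5 of 12 did in microglia (-0.29 to 0.55), 6 of 12 in endothelial cells and 6 of 10 in blood T cells. The median was higher for same-numbered than for other pairs in all 8 (0.0242 to 0.142 against -0.0821 to 0.00657). With the replicate block, microglia at day 14 against day 2 gave 3, neutrophils at day 14 gave 2 and at day 14 against day 2 gave 1; microglia gave 65 at day 2 and 43 at day 14, and endothelial cells 27 at day 2 and 21 for day 14 against day 2.

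With each library left out, the counts ran from 59 to 70 in microglia at day 2, 27 to 50 at day 14 and 1 to 11 between the times. They ran from 13 to 36 in endothelial cells at day 2, 9 to 33 between the times, 0 to 1 in border macrophages, 0 to 2 in neutrophils at day 14, 0 to 4 in aged microglia, 2 to 21 in monocyte-derived cells against monocytes and 0 to 2 in granulocytes against neutrophils. Microglia at day 14 gave 27 without sham replicate 3 and 28 without replicate 4. Microglia at day 14 against day 2 turned to 1 higher, 0 lower without day 2 replicate 4, and to 2 higher, 1 lower without day 14 replicate 1. The cause of these shifts was not tested. Under the alternatives there were 7626 values of named genes. Of these, 7134 were called or not called as reported, 423 lost the call, 69 gained it and 0 reversed while called. The 7134 include uncalled values that changed direction, such as Cox7a2l in microglia at day 2.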
